A study of Mus musculus with 62 samples.

Results

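The genes described here are the mouse genes whose symbol is Zfp followed by a number, with Zfp598 set aside. The count table held 192 of them among 10476 genes, and 170 reached a mean of at least 10 RNA-seq counts in heart or in C2C12 cells, whereas the other 22 did not and were left out. Among the 170 members, 151 reached that mean in both heart and C2C12, 10 in heart only and 9 in C2C12 only. Each gene was represented by the transcript with its highest mean count. The rule used levels only, not any difference between groups. The count table covered genes of the plus strand, for which the GENCODE M21 annotation has 195 coding Zfp genes, and the 198 coding Zfp genes of the minus strand were not analysed here.

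The study asked how the ribosomal protein RPL3L, a paralog of RPL3 found in heart and skeletal muscle, affects translation. Hearts came from male C57BL/6J mice at 10 weeks of age, either wild type (Rpl3l+/+, WT) or with a deletion and frameshift in exon 2 of Rpl3l made by CRISPR-Cas9 in zygotes (Rpl3l-/-, KO), with 4 RNA-seq and 4 Ribo-seq libraries for each genotype. C2C12 mouse myoblasts were infected with a retrovirus for RPL3 (RPL3 OE), for RPL3L (RPL3L OE) or with the empty vector (Control) and selected with puromycin, with 3 libraries of each assay for each group. RNA-seq counts fragments of mRNA, Ribo-seq counts the mRNA footprints protected by ribosomes, and translation efficiency (TE) is the footprint signal relative to the mRNA signal of the same gene. The knockout is body-wide, all C2C12 groups carry the vector and its drug resistance, and the bulk libraries mix all cells of a heart or dish.

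Zfp genes encode proteins with zinc fingers, short loops held by a zinc ion. Most carry C2H2 fingers in tandem arrays that read DNA sequence, and many also carry a KRAB domain, which recruits the co-repressor TRIM28 (KAP1) and with it histone methylation and silencing, above all at retroelements. KRAB zinc finger genes lie in clusters of near-identical copies that have expanded separately in each mammalian lineage. Other Zfp proteins bind RNA or act in ribosome assembly, splicing or mitosis, since the symbol follows the finger and not the function.

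Rpl3l RNA was 369 to 541 CPM (counts scaled to a common library total) in the WT hearts and 24.4 to 40.4 CPM in the KO hearts, and it was 1985 to 2045 CPM in RPL3L OE against at most 0.821 CPM in the other C2C12 RNA-seq libraries. Libraries held 1606700 to 29746110 counts. The airway marker list, of which 7 of 12 genes were in the table, summed to 1.11 to 464 CPM in WT and 1.01 to 1710 CPM in KO RNA-seq libraries, and to 5.33 to 1070 CPM and 1.25 to 3258 CPM in the Ribo-seq libraries. Libraries of both genotypes thus carried airway RNA, and the counts of called members are also given without the libraries above 100 CPM, a choice made after seeing the data. The labels number the replicates without naming mice or cultures. The study describes the heart libraries as coming from separate mice and the C2C12 Ribo-seq libraries as biologically independent samples, and for the C2C12 RNA-seq the p-values measure the spread between these libraries.

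By a pattern search of the coding sequences, 162 of the 169 coding members had at least 1 C2H2 finger and 7 had none, with a median of 11 fingers and a maximum of 34 in Zfp462. A KRAB motif was found in 77 members, and 128 had at least 1 copy of the conserved linker that joins neighbouring fingers. Chromosome 7 held 47 members, chromosome 17 held 24, chromosome 8 held 16 and chromosome 4 held 11. Within gaps of at most 250 kb, 81 members lay in clusters of at least 2, and the largest cluster, on chromosome 17, held 10 (Zfp677, Zfp54, Zfp51, Zfp53, Zfp52, Zfp948, Zfp983, Zfp760, Zfp229 and Zfp943).

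This repetition bears on the values of members with near copies, because the authors allowed Ribo-seq reads to align to several places, while the setting for RNA-seq is not given in the sources used here. To show it, each member's coding sequence was read as overlapping words of 28 bases, about the length of a footprint. The median member shared 1.31% of its words with another gene, 8.56% among members with a KRAB motif and 0.241% among the rest. There were 41 members with no shared word, 106 with under 5%, 25 with at least 50% and 4 with all words shared. The word shown, with the codons of the linker in capitals, was picked from part of the words only. It is the word in the most Zfp genes among those held by a member of the distal stretch of chromosome 4 described below. Words lying in genes of a chromosome set aside from this search were skipped. The word printed occurred in 27 Zfp genes, 11 of them members, and in 44 genes in all, and is printed from Zfp600 at chr4:146195578-146195605 of GRCm38.
Zfp600: ttCATACAGGAGAGAAACCTTACaaatg

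Single words can lie very close between genes, as printed for 4 genes of a distal stretch of chromosome 4. The largest differences between C2C12 groups were found there. The Zfp985 word was picked as one found in no other gene with the closest words in the others, so its small differences follow from that choice. Over its whole coding sequence, Zfp985 shared only 27.5% of its words with Zfp990, 8.82% with Zfp600 and 5.82% with Zfp981. The Zfp985 form, at chr4:147583709-147583736, occurred in no other gene. The capital in each of the other lines marks the only base that differs from it. The form printed for Zfp990 (chr4:145537472-145537499) and Zfp600 (chr4:146195751-146195778) occurred in 15 Zfp genes and 23 genes in all, Zfp985 included at another position of its coding sequence, and the Zfp981 form (chr4:146537403-146537430) in Zfp981 alone.
Zfp985: accggagagaaaccttacaaatgcagtg
Zfp990: acAggagagaaaccttacaaatgcagtg
Zfp600: acAggagagaaaccttacaaatgcagtg
Zfp981: acGggagagaaaccttacaaatgcagtg

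Zfp mRNAs were scarce in both tissues. In WT heart the median member had 1.90 RNA-seq CPM per kb of transcript, against 4.02 over all 6765 genes with the same minimum, and 77.1% of members lay below the median of all genes. In Control C2C12 the medians were 2.53 and 6.47, with 80% of members below. Footprints per kb of coding sequence gave medians of 3.50 against 11.6 in WT heart and 3.52 against 13.5 in Control C2C12. Over all 170 members the RNA-seq CPM, per library total, summed to 1534 ± 125 (SD, n = 4) in WT heart, 1478 ± 68.7 (n = 4) in KO heart, 2544 ± 13.7 (n = 3) in Control, 2465 ± 27.5 (n = 3) in RPL3 OE and 2592 ± 21.9 (n = 3) in RPL3L OE.

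A few members stood far above the rest, and the highest carried no KRAB motif. In WT heart the order by RNA level per kb was Zfp358 (32.5 ± 4.62), Zfp637 (29.1 ± 3.74), Zfp207 (20.6 ± 3.90), Zfp771 (17.6 ± 1.94) and Zfp622 (16.8 ± 0.905), each as mean ± SD over 4 libraries. Zfp358 and Zfp637 differed by less than their SDs, and so did Zfp771 and Zfp622, whereas Zfp207 and Zfp771 differed by less than the SD of Zfp207 only and Zfp637 stood clear of Zfp207. In Control C2C12 the order was Zfp207 (82.5 ± 1.39), Zfp637 (39.0 ± 1.40), Zfp622 (27.5 ± 0.372), Zfp384 (25.7 ± 2.19) and Zfp703 (24.6 ± 0.225) over 3 libraries. Here Zfp207 and Zfp637 stood clear of their neighbours, and Zfp384 lay within its own SD of both Zfp622 and Zfp703, which differed from each other by more than their SDs. Zfp207 (BuGZ) acts at kinetochores and the spindle of dividing cells, Zfp622 is a late assembly factor of the large ribosomal subunit, Zfp384 (CIZ) binds collagen and metalloproteinase gene promoters, and Zfp703 is a transcriptional co-repressor.

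**Figure D1:**
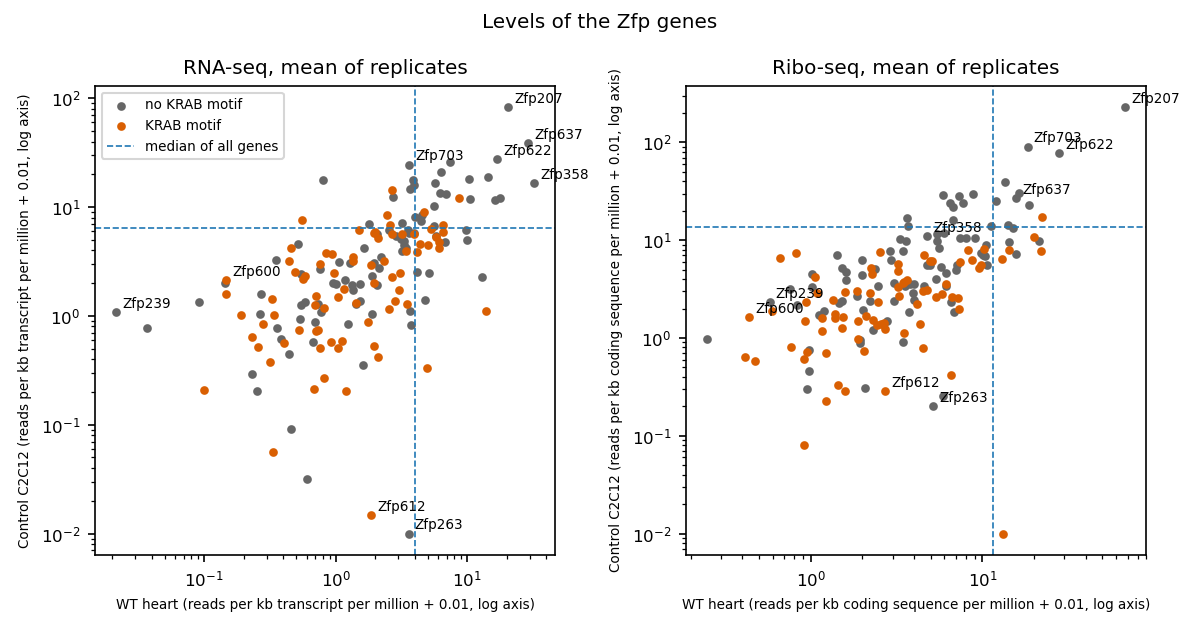
Mean RNA-seq (left, CPM per kb of transcript) and Ribo-seq levels (right, CPM per kb of coding sequence) of each member in WT heart (x axis) and Control C2C12 (y axis), on log axes with 0.01 added, coloured by KRAB motif. Most points lie below and to the left of the dashed medians of all genes, and Zfp263 and Zfp612 lie lowest in C2C12 RNA.

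Footprints per mRNA depended in heart on which members were counted. With a mean of at least 10 counts in both assays, 107 members in WT heart had a median log2 TE level of 1.00, against 1.47 over 5273 genes, and 68 of the 107 lay below the median of all genes. With at least 50 counts, 12 members were left with a median of 1.69, against 1.51 over 2976 genes, so that the order turned. In Control C2C12 129 members with at least 10 counts had a median of 0.55, against 1.15 over 5299 genes. Among 42 with at least 50 counts there it was 0.83, against 1.17 over 4048 genes, and 24 of the 42 lay below the median of all genes. Of the members with at least 50 counts, the lowest in heart was Zfp651, with 13.0 ± 2.06 RNA and 10.4 ± 2.22 footprint CPM per kb (n = 4). The highest was Zfp955b, with 1.34 ± 0.408 RNA and 22.2 ± 4.04 footprint CPM per kb, followed by Zfp827 and by Zfp148, which binds GC-rich promoters. Zfp638, an RNA-binding protein that silences unintegrated retroviral DNA, and Zfp622 were also among the 3 lowest in heart. In Control C2C12 the lowest were Zfp62, Zfp639 and Zfp628, with Zfp62 at 10.2 ± 0.578 RNA and 5.31 ± 0.827 footprint CPM per kb (n = 3). The highest were Zfp740, Zfp444 and Zfp275, with Zfp275 at 1.59 ± 0.0497 RNA and 22.1 ± 1.88 footprint CPM per kb.

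No Zfp gene passed the test between Rpl3l-/- and Rpl3l+/+ hearts in any readout. By the quasi-likelihood test of edgeR (p adjusted over all transcripts after Benjamini and Hochberg, threshold 0.05), 0 of 161 members tested were called for RNA, where 0.0159% of all genes were called. For footprints it was 0 of 97, where 0.744% of all genes were called, and for TE 0 of 97, where 0% were called. At an unadjusted p under 0.05 there were 10, 18 and 11 members respectively. The share of all genes at that unadjusted cut is not given here, so these counts are not read as a result about the members. DESeq2 also called 0, 0 and 0 members. Without the libraries whose airway markers exceeded 100 CPM edgeR again called 0 members in each readout. That left WT replicates 1 and 3 in both assays, with KO replicates 2 and 4 for RNA and 3 and 4 for footprints. A fit of so few libraries could hardly call any member, so no conclusion is drawn from it. The median member log2 fold change was -0.04 for RNA (0.01 over all genes), -0.10 for footprints (0.02) and -0.05 for TE (0.00). Members with a KRAB motif had a median of -0.28 for footprints (33 tested), against -0.01 for the other 64, and none in either group was called.

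The members with the smallest p in heart were Zfp970 and Zfp395 for RNA. Zfp970 RNA was 12.3, 9.97, 12.6 and 8.76 CPM in the WT hearts and 15.5, 16.6, 18.1 and 15.8 CPM in the KO hearts, so the groups did not overlap, but the log2 fold change of 0.62 had an adjusted p of 0.9996 by edgeR. Zfp395 RNA was 10.3, 8.31, 7.95 and 7.98 CPM in WT and 5.89, 3.03, 5.96 and 5.31 CPM in KO, with a log2 fold change of -0.76 and the same adjusted p. Again every KO heart lay below every WT heart without passing the test over all transcripts. Zfp771 had the smallest p for footprints, with 16.7, 16.6, 12.3 and 15.9 CPM in WT and 22.2, 28.1, 29.0 and 19.7 CPM in KO (log2 fold change 0.69, adjusted p = 0.0818 by edgeR). Zfp128 footprints were 6.99, 4.45, 5.92 and 6.35 CPM in WT and 2.59, 3.83, 3.22 and 2.47 CPM in KO (log2 fold change -0.94, adjusted p = 0.136 by edgeR). For TE the smallest p belonged to Zfp369 (log2 fold change -1.82, adjusted p = 0.593 by edgeR) and Zfp62 (log2 fold change -0.65, adjusted p = 0.684 by edgeR). Zfp369 had only 1, 1, 4 and 4 RNA counts in WT and 23, 3, 40 and 13 in KO, so its TE rests on few reads.

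In C2C12 some members differed between the groups in RNA and in footprints, and in each of these comparisons a smaller share of the members was called than of all genes. Most members also lay below the median level of all genes in Control C2C12 (80% for RNA and 88.2% for footprints). The part of low counts in the smaller shares was not tested. Both comparisons with Control use the same Control libraries, so their values are given side by side and are not independent. For RNA, 7 of 160 members were called in RPL3L OE against Control (3 higher, 4 lower), where 9.72% of all genes were called. In RPL3 OE against Control 11 of 160 were called (5 higher, 6 lower), where 17.2% of all genes were, and in RPL3L OE against RPL3 OE 21 of 160 (15 higher, 6 lower), where 27.6% were. For footprints it was 8 of 140 (4 higher, 4 lower), where 12.2% of all genes were called, 6 of 140 (1 higher, 5 lower), where 11.7% were, and 5 of 140 (4 higher, 1 lower), where 19.6% were. For TE, 3 of 139 members were called in RPL3L OE against Control (2 higher, 1 lower), where 2.22% of all genes were called, a share near that of the members. TE calls numbered 0 of 139 in RPL3 OE against Control, where 0.0925% of all genes were called, and 0 of 139 in RPL3L OE against RPL3 OE, where 0.278% were. In these last 2 comparisons 6 and 9 members had an unadjusted p under 0.05 by edgeR, again without the share of all genes at that cut. DESeq2 called 0 and 0 in them.

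Some of these counts rest on single libraries. The 7 RNA calls of RPL3L OE against Control became 3 without Control replicate 3, 3 without RPL3L OE replicate 1 and 4 without RPL3L OE replicate 2, and the 11 of RPL3 OE against Control became 7 without RPL3 OE replicate 2. The 8 footprint calls of RPL3L OE against Control became 5 without Control replicate 3, and the 5 between the overexpressing groups became 8 when replicate 2 of RPL3 OE was left out and 3 when replicate 3 of either group was. The TE count of 3 became 1 or 2 whichever replicate was left out, with 1 without RPL3L OE replicate 2, and the TE count of 0 in RPL3 OE against Control became 1 (Zfp383) without Control replicate 1.

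**Figure D2:**
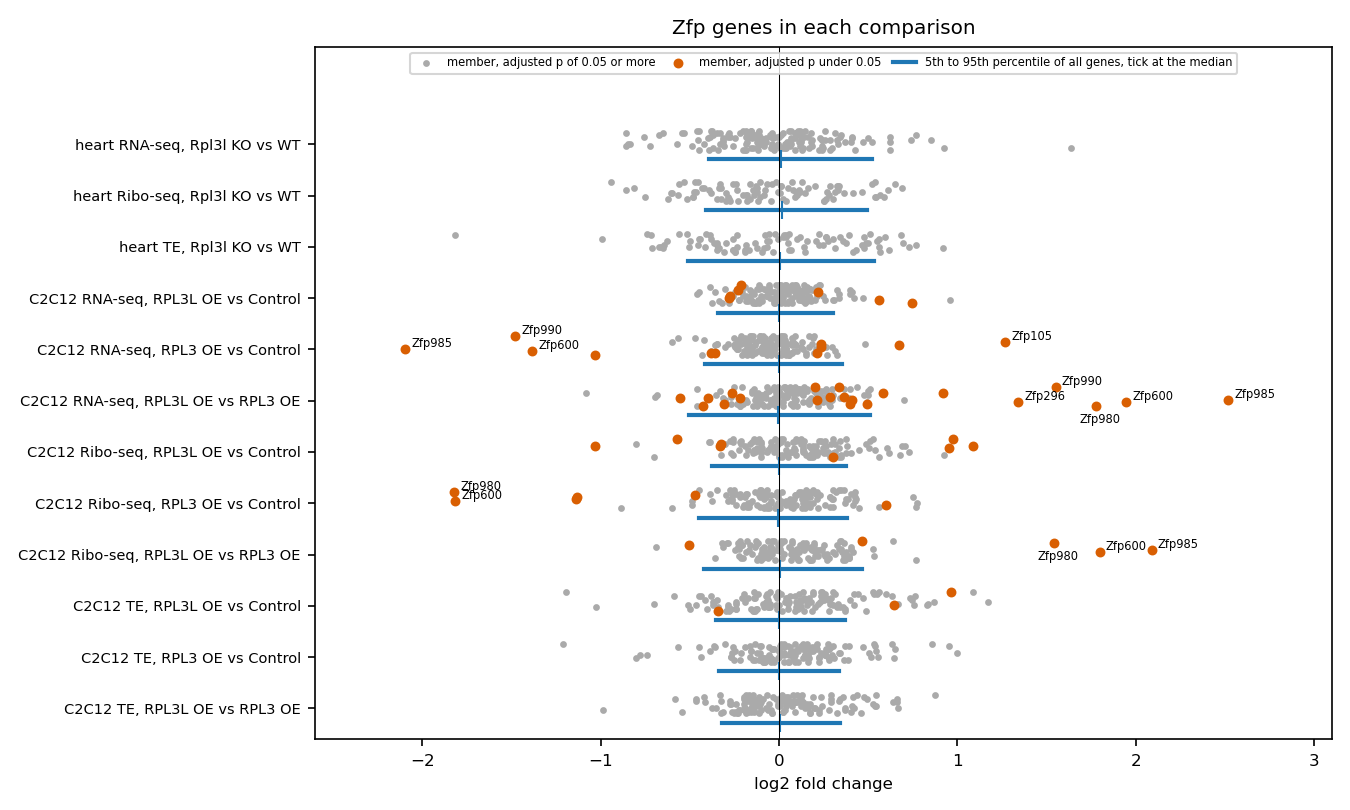
Log2 fold change (x axis) of each member tested in the 12 comparisons within heart and within C2C12 (y axis), with the 5th to 95th percentile of all genes as a bar and its median as a tick. No member is coloured as called in the 3 heart comparisons, and in C2C12 Zfp985, Zfp600, Zfp980 and Zfp990 stand outside the bars when RPL3 OE is compared.

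The largest differences among the members came from 1 stretch of chromosome 4. The 8 members of the stretch chr4:145514884-147585198 (Zfp990, Zfp980, Zfp600, Zfp992, Zfp981, Zfp991, Zfp982 and Zfp985) all had a KRAB motif. The stretch was chosen after its values were seen and gets no test as a group. In RPL3 OE against Control 4 of the 7 tested for RNA fell and none rose, in RPL3L OE against Control 2 rose and none fell, and in RPL3L OE against RPL3 OE 5 rose and none fell. Their median log2 fold changes in these comparisons were -1.03, 0.32 and 1.55, against 0.00 over all genes in each.

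Zfp985 (chr4:147553339-147585198, GRCm38) showed the largest change of any member between C2C12 groups. Its RNA was 7.95, 8.93 and 9.64 CPM in Control, 1.19, 1.64 and 3.02 CPM in RPL3 OE, and 12.67, 11.99 and 11.26 CPM in RPL3L OE. The groups did not overlap, with RPL3 OE lowest and RPL3L OE highest. By edgeR the log2 fold change was -2.10 (SE 0.204, adjusted p = 6.78e-13) in RPL3 OE against Control and 2.52 (SE 0.211, adjusted p = 1.22e-15) in RPL3L OE against RPL3 OE. In RPL3L OE against Control it was 0.42 (SE 0.144, adjusted p = 0.0512). Zfp985 footprints were 4.02, 5.43 and 2.25 CPM in Control, 1.30, 1.96 and 2.03 CPM in RPL3 OE, and 6.82, 9.21 and 6.75 CPM in RPL3L OE, again without overlap. The footprint log2 fold changes were -1.14 (SE 0.372, adjusted p = 0.0416), 0.95 (SE 0.273, adjusted p = 0.0190) for RPL3L OE against Control, and 2.09 (SE 0.300, adjusted p = 2.39e-06) between the overexpressing groups. The first of these was lost in 7 of 15 alternatives, among them those without Control replicate 1 (-1.11), Control replicate 2 (-0.87), RPL3 OE replicate 1 (-0.96), RPL3 OE replicate 2 (-1.26) and RPL3 OE replicate 3 (-1.21). The second was lost without Control replicate 1 (0.97), Control replicate 3 (0.71) or RPL3L OE replicate 2 (0.79), and DESeq2 did not call it.

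Zfp600 (chr4:146157690-146198755) and Zfp980 (chr4:145670685-145704441) moved the same way in RNA. Zfp600 RNA was 8.95, 9.21 and 8.43 CPM in Control, 3.69, 3.87 and 2.76 CPM in RPL3 OE, and 11.4, 14.5 and 13.0 CPM in RPL3L OE. Zfp980 RNA was 6.56, 6.61 and 5.71 CPM, then 3.43, 2.81 and 2.93 CPM, then 11.1, 10.1 and 10.2 CPM. No 2 groups overlapped for either gene. By edgeR Zfp600 fell by 1.38 on the log2 scale in RPL3 OE against Control (adjusted p = 4.37e-09) and rose by 0.56 in RPL3L OE against Control (adjusted p = 0.0028). Zfp980 fell by 1.03 (adjusted p = 3.06e-05) and rose by 0.75 (adjusted p = 0.000250). Their footprints fell by 1.82 each in RPL3 OE against Control (adjusted p = 0.00481 for Zfp600 and 0.00590 for Zfp980 by edgeR), a call lost without Control replicate 1 (-1.35 and -1.50). In RPL3L OE against Control, where Zfp985 footprints rose, those of Zfp600 (-0.02, adjusted p = 0.983 by edgeR) and Zfp980 (-0.28, adjusted p = 0.695) did not pass the test.

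The sequences of these genes overlap heavily, so their values may not be separate measurements. Of the 28-base words of Zfp980, 77.2% also lay in Zfp600, and 70.2% of those of Zfp600 lay in Zfp980. Their footprint counts were 4, 8 and 3 in RPL3 OE for Zfp600 and the same 4, 8 and 3 for Zfp980, and 23, 10 and 7 against 21, 11 and 8 in Control. Rex2, a gene of the same stretch without the Zfp symbol, held 83.8% of the words of Zfp600, and its RNA changed by -1.12 and 0.64 against Control, both called. Zfp985 shared 54.0% of its words with some gene but only 8.82% with Zfp600 and 27.5% with Zfp990, its closest partner among the 8 members.

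Zfp990 RNA was 3.03, 3.44 and 2.72 CPM in Control, 0.264, 1.41 and 1.38 CPM in RPL3 OE, and 4.43, 2.74 and 2.46 CPM in RPL3L OE. Every RPL3 OE library lay below every other library, and Control and RPL3L OE overlapped. Zfp990 fell by 1.48 (SE 0.327, adjusted p = 0.000492) in RPL3 OE against Control, and was 1.55 higher in RPL3L OE than in RPL3 OE (adjusted p = 0.000490 by edgeR). Zfp981 was 0.92 higher in RPL3L OE than in RPL3 OE (adjusted p = 0.0202 by edgeR), a call lost without RPL3 OE replicate 3 (0.71), RPL3L OE replicate 1 (0.85) or RPL3L OE replicate 2 (0.74), and its value of -0.60 against Control had an adjusted p of 0.166.

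Neighbours in the same stretch did not all move. Zfp992 and Zfp991, which share 91.1% and 91.0% of their words with each other, had RNA values of -0.20 and -0.28 in RPL3 OE against Control and -0.23 and -0.15 in RPL3L OE against Control, none called. Zfp982 had too few counts in C2C12 to be tested. Among 4 other genes tested there or just beyond Zfp985, Rex2 and Gm13212 (-1.16) fell in RPL3 OE, and 2510039O18Rik (0.02) and Nppb (-0.22), both beyond Zfp985, were not called. TE of the 3 members tested (Zfp985, Zfp600 and Zfp980) was not called in any C2C12 comparison, with values from -1.03 to 0.95.

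The promoters of the stretch also resembled each other. In the RefSeq promoter table for GRCm38.p6, which gave an entry for 5 of the 8 members, a word of 20 bases was present in all 5 (Zfp600, Zfp980, Zfp981, Zfp982 and Zfp985). It is shown because every member with an entry held it. Searched on the gene's own strand, it occurred in 7 of 32851 promoters (0.0213%), which were those of Rex2, Zfp979 and the 5 members. In Zfp980 it lies at chr4:145670711-145670730, 14 to 33 bases past the annotated start.
Zfp980: gctgcctcgtggtcaggaag

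**Figure D3:**
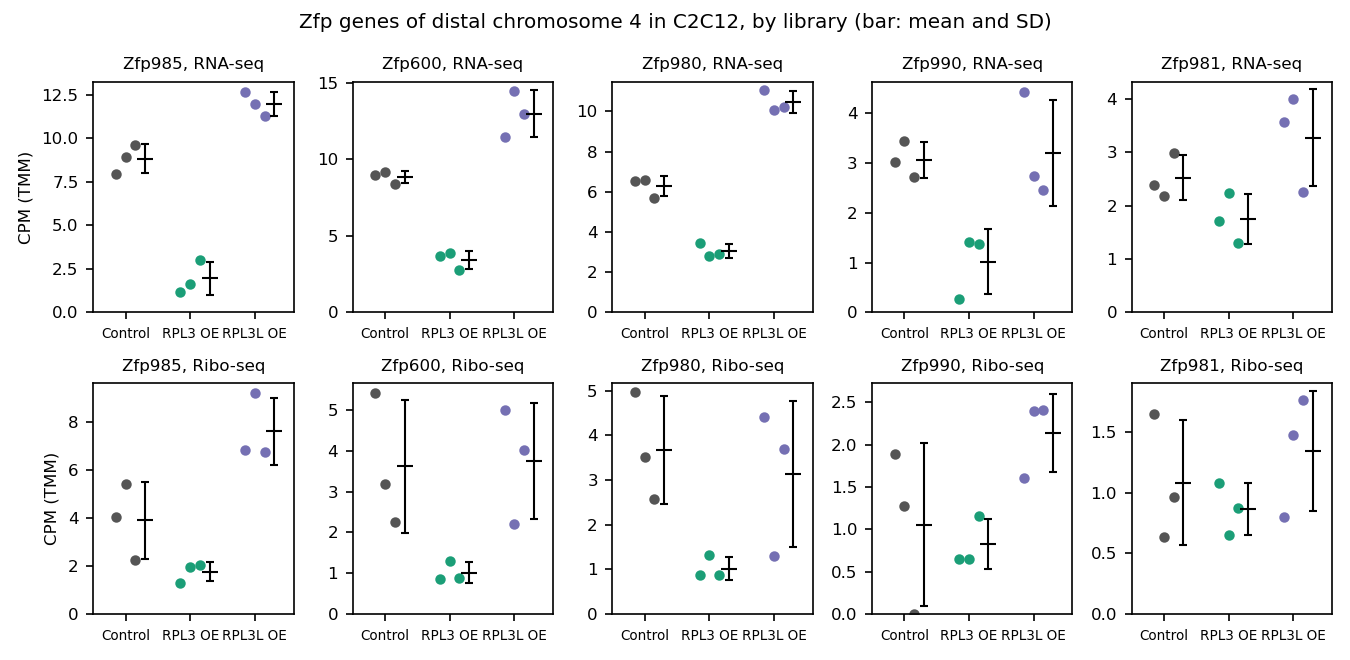
RNA-seq (top) and Ribo-seq (bottom) CPM of Zfp985, Zfp600, Zfp980, Zfp990 and Zfp981 in each C2C12 library, with bars for the mean and SD of 3 libraries. RPL3 OE libraries lie lowest for Zfp985, Zfp600, Zfp980 and Zfp990 RNA, and RPL3L OE libraries lie highest for Zfp985, Zfp600 and Zfp980 RNA.

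Other measures moved with the same groups. The fibroblast marker list, 7 of 8 genes in the table and none at 0, summed to 1744 to 1822 CPM in Control, 2616 to 2654 CPM in RPL3 OE and 1928 to 1964 CPM in RPL3L OE RNA-seq libraries. The myoblast list, 5 of 10 genes and none at 0, summed to 556 to 591 CPM, 370 to 410 CPM and 667 to 682 CPM. Control libraries were also deeper, with 14324795 to 29746110 RNA-seq counts against 7647102 to 11669868 in RPL3 OE and 8091836 to 9715596 in RPL3L OE. Their part in the results was not tested. In bulk samples, fewer cells of a type and less RNA per cell cannot be told apart.

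Zfp703, which has no shared words, gave the most precise changes outside chromosome 4, and mRNA and footprints did not move alike. Its RNA was 76.6, 77.5 and 78.2 CPM in Control, 58.3, 59.4 and 60.2 CPM in RPL3 OE, and 75.4, 78.8 and 79.8 CPM in RPL3L OE. RPL3 OE was lower without overlap, and RPL3L OE overlapped Control. Footprints were 158, 168 and 166 CPM in Control, 115, 122 and 114 CPM in RPL3 OE, and 130, 131 and 130 CPM in RPL3L OE, so that both overexpressing groups lay below Control. In RPL3 OE against Control its RNA fell by 0.38 (SE 0.0535, adjusted p = 5.51e-08 by edgeR) and its footprints fell by 0.47 (SE 0.0543, adjusted p = 6.69e-08). In RPL3L OE against Control its footprints fell by 0.33 (SE 0.0521, adjusted p = 3.24e-05) and its TE fell by 0.34 (SE 0.0707, adjusted p = 0.00313), a call kept under every alternative.

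Zfp617 and Zfp943, both with a KRAB motif, had a higher TE in RPL3L OE than in Control. Zfp617 RNA was 35.4, 36.1 and 33.8 CPM in Control, 39.3, 38.2 and 37.2 CPM in RPL3 OE, and 26.2, 29.6 and 30.8 CPM in RPL3L OE. Its footprints were 17.96, 20.75 and 16.04 CPM, then 22.5, 25.0 and 21.2 CPM, then 23.1, 25.8 and 22.2 CPM, so that RPL3L OE had the least RNA and more footprints than Control. RNA was -0.27 on the log2 scale in RPL3L OE against Control (adjusted p = 0.0117 by edgeR), which was lost without RPL3L OE replicate 1 (-0.21). TE rose by 0.65 (SE 0.147, adjusted p = 0.00964 by edgeR), which was lost without Control replicate 1 (0.62) or RPL3L OE replicate 2 (0.60). DESeq2 did not call this TE change. Zfp617 shared 77.03% of its words with other genes.

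Zfp943 had 4.02, 5.43 and 2.57 CPM of footprints in Control, 5.83, 7.04 and 7.55 CPM in RPL3 OE, and 8.83, 8.29 and 8.52 CPM in RPL3L OE. Footprints were higher in RPL3L OE than in any Control library, with a log2 fold change of 1.09 (SE 0.247, adjusted p = 0.00282 by edgeR). DESeq2 did not call Zfp943 here. Its TE value of 0.96 (adjusted p = 0.0486) kept its call in 2 of 14 alternatives, and was lost whichever replicate of any group was left out, with values from 0.74 (without Control replicate 3) to 1.18 (without Control replicate 2). Zfp943 shared 19.7% of its words.

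**Figure D4:**
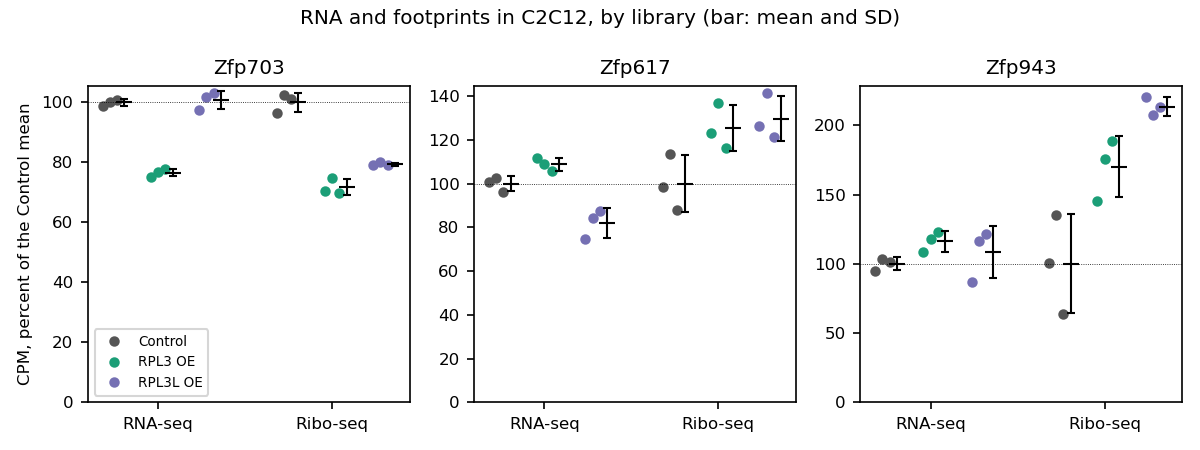
RNA-seq and Ribo-seq CPM of Zfp703, Zfp617 and Zfp943 in each C2C12 library as a percentage of the Control mean, with bars for the mean and SD of 3 libraries. Zfp703 footprints lie below Control in both overexpressing groups while its RNA does so in RPL3 OE, and Zfp617 RNA is lowest in RPL3L OE.

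The remaining RNA calls were small or rested on few reads. In RPL3L OE against Control, Zfp827 (-0.28), Zfp523 (-0.23) and Zfp664 (-0.21) fell and Zfp469 (0.22) rose, all on the log2 scale and with adjusted p between 0.0128 and 0.0395 by edgeR. Without Control replicate 3 all 4 calls were lost, with values of -0.26, -0.19, -0.21 and 0.17. Without RPL3L OE replicate 1 the first 3 were lost (-0.27, -0.22 and -0.16), and likewise without RPL3L OE replicate 2 (-0.28, -0.22 and -0.21). Zfp827 was also lost without Control replicate 1 (-0.28) or RPL3L OE replicate 3 (-0.30), Zfp664 without Control replicate 2 (-0.18) and Zfp469 without RPL3L OE replicate 3 (0.14). DESeq2 did not call Zfp827, Zfp523 or Zfp664 in this comparison. In RPL3 OE against Control, Zfp97 (-0.36) fell, and Zfp639 (0.21), Zfp469 (0.23), Zfp386 (0.23), Zfp949 (0.67) and Zfp105 (1.27) rose. Zfp105 had 12, 11 and 16 counts in Control and 14, 17 and 13 in the shallower RPL3 OE libraries, or 0.757, 0.773 and 0.537 CPM against 1.85, 1.99 and 1.12 CPM, without overlap. Each of these 6 calls was lost without some library, and DESeq2 did not call Zfp97, Zfp386, Zfp949 or Zfp105. Zfp97 was lost without Control replicate 1 (-0.27) or 3 (-0.39), RPL3 OE replicate 2 (-0.39) or 3 (-0.28), or RPL3L OE replicate 2 (-0.36). Zfp949 was lost without Control replicate 1 (0.52) or 2 (0.62) or RPL3 OE replicate 2 (0.54) or 3 (0.68). Zfp105 was lost without Control replicate 3 (1.05) or RPL3 OE replicate 1 (1.18) or 2 (1.10). Zfp386 was lost without Control replicate 1 (0.22) or 2 (0.22) or RPL3 OE replicate 3 (0.21), Zfp639 without Control replicate 1 (0.20) or RPL3 OE replicate 1 (0.21) or 2 (0.17), and Zfp469 without Control replicate 3 (0.18) or RPL3 OE replicate 3 (0.19).

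Between RPL3L OE and RPL3 OE, Zfp296 RNA was 1.34 higher in RPL3L OE on the log2 scale, with 16, 15 and 13 counts in RPL3L OE and 3, 6 and 9 in RPL3 OE. The 6 members lower in RPL3L OE were Zfp518a (-0.55), Zfp958 (-0.43), Zfp617 (-0.40), Zfp639 (-0.31), Zfp523 (-0.26) and Zfp386 (-0.22). Zfp622, the ribosome assembly factor, was 85.5 ± 3.98 CPM in RPL3L OE and 73.9 ± 6.53 CPM in RPL3 OE (n = 3 each), a difference of 0.21 (adjusted p = 0.00394 by edgeR). Zfp617, Zfp639 and Zfp523 kept their calls under every alternative. Zfp518a was lost without RPL3L OE replicate 3 (-0.45), and Zfp296 without RPL3 OE replicate 1 (1.15) or RPL3L OE replicate 1 (1.21) or 2 (1.32). Zfp958 was lost without Control replicate 3 (-0.42), RPL3 OE replicate 2 (-0.28) or 3 (-0.50) or RPL3L OE replicate 2 (-0.28), and Zfp386 without any single library of either group (-0.24 to -0.20). DESeq2 did not call Zfp296, Zfp958 or Zfp386 in this comparison.

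Besides these and chromosome 4, footprint calls were few. Zfp710 (-0.57) and Zfp827 (-0.33) fell and Zfp638 (0.30) rose in RPL3L OE against Control, and Zfp52 (0.60) rose in RPL3 OE against Control. Zfp52 footprints were 12.3, 10.2 and 11.6 CPM in Control and 18.8, 14.6 and 20.0 CPM in RPL3 OE, without overlap, while its RNA was 43.1, 45.1 and 48.0 against 47.6, 45.6 and 48.9 CPM. Between the overexpressing groups, Zfp53 (-0.50) was lower and Zfp568 (0.46), a KRAB repressor of a placental Igf2 transcript, was higher in RPL3L OE. Zfp937 (0.98 in RPL3L OE) and Zfp383 (-1.03 in RPL3L OE and -1.13 in RPL3 OE), also against Control, were called although their groups overlapped. Zfp710 was lost without Control replicate 1 (-0.51), and Zfp52 without Control replicate 2 (0.54) or RPL3 OE replicate 1 (0.54). Zfp827 was lost without Control replicate 2 (-0.27) or 3 (-0.33) or RPL3L OE replicate 2 (-0.27) or 3 (-0.29), and Zfp638 without Control replicate 2 (0.21) or 3 (0.32) or RPL3L OE replicate 1 (0.30) or 3 (0.26). Zfp53 was lost without RPL3 OE replicate 2 (-0.46) or 3 (-0.42) or RPL3L OE replicate 1 (-0.43) or 3 (-0.48), and Zfp568 without RPL3 OE replicate 1 (0.45) or 3 (0.42) or RPL3L OE replicate 2 (0.40) or 3 (0.49). DESeq2 called none of Zfp710, Zfp827, Zfp638, Zfp52, Zfp53 and Zfp568 for footprints in these comparisons.

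Calls were also counted by sequence class. For RNA in RPL3 OE against Control, 17.2% of all genes were called. There 5 of 24 tested members with at least 50% shared words were lower and none higher, a share near that of all genes. Among 101 with under 5% shared words 1 was lower and 4 were higher. In RPL3L OE against RPL3 OE the counts were 7 higher and 1 lower of 24, and 6 higher and 3 lower of 101, where 27.6% of all genes were called. The class with many shared words holds Zfp985, Zfp600, Zfp980, Zfp990 and Zfp981. Members with a KRAB motif had a median footprint log2 fold change of 0.25 in RPL3L OE against Control (59 tested, 3 higher and 1 lower), and those without had 0.00 (81 tested, 1 higher and 3 lower), against 0.00 over all genes. Of all genes 12.2% were called in that comparison. The difference between classes was not tested, since members are not replicates.

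Heart and C2C12 differed in RNA and footprints in most members, as in most genes. Between WT heart and Control C2C12, 102 of 167 members were called for RNA (56 higher in heart, 46 lower), where 82.1% of all genes were called. For footprints 94 of 129 were called (53 higher, 41 lower), where 84.3% of all genes were, and for TE 45 of 129 (23 higher, 22 lower), where 48.5% were. Among the 151 members that reached the minimum in both tissues, 48 were higher and 39 lower for RNA. Without the libraries whose airway markers exceeded 100 CPM, 58 were higher and 47 lower of 168 tested for RNA, 47 and 35 of 134 for footprints, and 21 and 19 of 134 for TE. The shares of all genes called under either restriction are not given here. These restricted counts are therefore not read as a result about the members.

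The members lowest in C2C12 were near absent there. A gene near absent in C2C12 could enter the set only through its heart level, so its large difference follows in part from the rule. Zfp263 had 40, 67, 47 and 153 RNA counts in the WT hearts and 0, 0 and 0 in Control C2C12. Against a floor of 3 counts over the 3 Control libraries, its RNA was at least 379-fold higher in heart. Zfp263 footprints were 44, 21, 30 and 13 against 1, 1 and 2. Zfp612 had 31, 52, 38 and 117 RNA counts in heart and 1 count in all in Control C2C12, a ratio of 881 (95% exact interval 157 to 34947, counting error only). Zfp366 (DC-SCRIPT), a co-repressor of nuclear receptors known from dendritic cells, was 4.68 ± 1.76 CPM in heart and 0.101 ± 0.0909 CPM in C2C12, and Zfp982, Zfp970 and Zfp112 were higher by 4.62, 4.29 and 3.41 on the log2 scale.

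The members lowest in heart included genes of the chromosome 4 stretch. A gene near absent in heart could likewise enter the set only through its C2C12 level. Zfp239 had 2 RNA counts over the 4 WT hearts and 197 over the 3 Control C2C12 libraries, a ratio of 26.6 (95% exact interval 7.27 to 221, counting error only). Zfp41 had 0, 3, 0 and 3 counts in heart and 116, 76 and 182 in C2C12. Zfp600 (-3.49), Zfp980 (-2.99) and Zfp985 (-2.27) were lower in heart, where Zfp600 was 0.712 ± 0.377 CPM, and so was Zfp990 (-2.02), whereas Zfp982 (4.62) was higher. Too few heart counts were left for a footprint test of any of them. Zfp184 (-3.45), Zfp469 (-3.36) and Zfp7 (-3.23) were the other large decreases.

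For footprints the largest increases in heart after Zfp263 were Zfp366 (4.82), Zfp30 (2.84), Zfp606 (2.24), Zfp128 (2.05) and Zfp652 (1.93). The largest decreases were Zfp57 (-2.87), Zfp7 (-2.80), Zfp469 (-2.52), Zfp580 (-1.94), Zfp703 (-1.92) and Zfp414 (-1.76). Zfp57, a KRAB protein that protects imprinted methylation, had 0.916 ± 0.377 CPM in heart and 6.99 ± 1.74 CPM in C2C12.

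TE set some members apart whose RNA and footprints moved against each other. Zfp358 RNA was 81.4 ± 12.3 CPM in heart and 24.7 ± 3.06 CPM in C2C12, but its footprints were 9.10 ± 2.81 and 16.2 ± 1.31 CPM, so that TE was 2.52 lower in heart on the log2 scale (log2 fold change -2.52, SE 0.255, adjusted p = 1.97e-07 by edgeR). Zfp148 went the other way, with 13.4 ± 6.504 and 36.7 ± 1.38 CPM of RNA, 40.2 ± 3.08 and 27.4 ± 5.17 CPM of footprints, and a TE log2 fold change of 1.97 (SE 0.297, adjusted p = 1.92e-05). Zfp369 had the largest TE increase (3.97), resting on 1, 1, 4 and 4 RNA counts in heart. Further increases were found for Zfp937 (2.66), Zfp652 (1.84), Zfp518a (1.72) and Zfp280d (1.63), and decreases for Zfp775 (-2.29), Zfp651 (-2.28), Zfp444 (-2.03) and Zfp428 (-1.91). Zfp263 was also called lower, but with no RNA counts in C2C12 its TE has no interpretable size.

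Called members were also counted by KRAB motif. For footprints 27 of 49 tested KRAB motif members were higher in heart and 7 lower (median log2 fold change 0.72), and 26 and 34 of the other 80 were (median -0.21). For TE 10 of 49 were higher and 1 lower (median 0.40), against 13 higher and 21 lower of 80 (median -0.18). The median over all genes was -0.08 for footprints and -0.13 for TE, and 84.3% and 48.5% of all genes were called. Among members with at least 50% shared words, with or without a KRAB motif, 9 of 11 tested were higher in heart for footprints and none lower. For TE 5 were higher and 1 lower. Both shares called were near those of all genes.

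**Figure D5:**
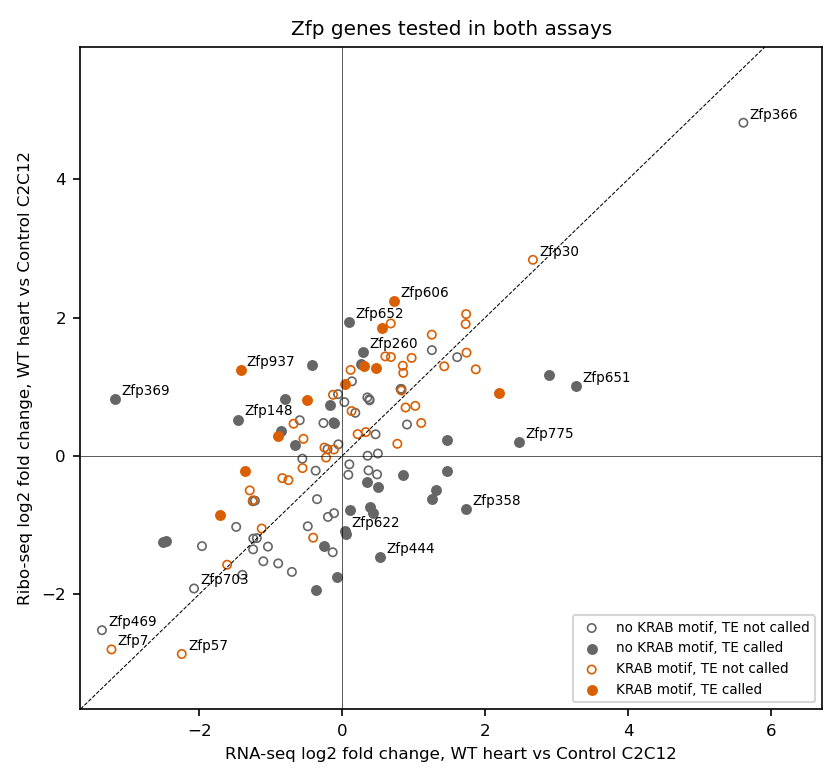
RNA-seq (x axis) and Ribo-seq (y axis) log2 fold changes between WT heart and Control C2C12 for 128 members tested in both assays, Zfp263 left out because its RNA count in C2C12 was 0, with filled points where TE was called. Points above the dashed line of equal change number 39 of 49 with a KRAB motif and 38 of 79 without.

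The tissues differ in cell makeup. The cardiomyocyte list, 7 of 14 genes in the table, summed to 47670 to 54910 CPM in WT heart RNA and 224 to 230 CPM in Control C2C12, where 4 of the 7 (Pln, Mybpc3, Nppa and Myl3) were at 0. The myoblast list summed to 1617 to 1814 CPM in WT heart RNA and 556 to 591 CPM in Control, but its defining genes Myog, Myod1 and Cdh15 were at 0 in heart. Tissue, cell type and growth in culture cannot be told apart in this comparison.

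By role, the RNA-binding and ribosome-related members (Zfp622, Zfp346, Zfp638, Zfp326, Zfp207 and Zfp830, 6 of 9 listed genes in the table) gave few calls in C2C12. Zfp622 was higher in RPL3L OE between the overexpressing groups for RNA and Zfp638 rose for footprints as given above. Between heart and C2C12, Zfp207 (RNA -1.25, footprints -1.35) and Zfp326 (RNA -1.25, footprints -1.20), which links splicing with transcript elongation, were lower in heart in both assays. Zfp622 was called for footprints (-1.09) and TE (-1.15) but not for RNA (0.04), and Zfp638 was higher for footprints (0.74) and TE (0.91). The zinc finger genes of mRNA decay (Zfp36 and its relatives) were not analysed here.

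The members known for retroelements and imprinting (6 of 10 in the table) included Zfp57, Zfp568, Zfp961, Zfp809 and Zfp932, the last 2 known from silencing of proviral or endogenous retroviral DNA. Against C2C12, heart RNA was lower for Zfp57 (-2.25), Zfp568 (-1.35) and Zfp961 (-0.75) and higher for Zfp809 (0.68, footprints 1.43). Zfp568 TE was 1.13 higher in heart. Zfp932 was not called (-0.23 for RNA, -0.02 for footprints). In the C2C12 comparisons the only call was that of Zfp568 footprints between the overexpressing groups.

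The developmental and chromatin members (8 of 16 in the table) were lower in heart RNA in 7 of 8 cases and higher in none, a share called near the 82.1% of all genes. Zfp516 (-2.51), a co-activator of brown fat genes, Zfp703 (-2.07), Zfp148 (-1.45), Zfp462 (-1.40), Zfp697 (-1.22), Zfp281 (-0.66) and Zfp410 (-0.35), an activator of Chd4, fell. Zfp260, a partner of GATA4 in cardiac gene control, did not pass for RNA (0.29, adjusted p = 0.121 by edgeR). Its footprints were 21.4 ± 2.89 CPM in heart and 7.59 ± 1.38 CPM in C2C12 (log2 fold change 1.503), and its TE rose by 1.21. TE was higher in heart for 4 of the 8 (Zfp148, Zfp516, Zfp260 and Zfp281) and lower for none, a share called near the 48.5% of all genes. In C2C12 the only called gene of this list was Zfp703.

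The partners through which KRAB proteins silence (21 of 30 listed genes in the table) had 14 of 21 lower and 3 higher in heart for RNA, where 82.1% of all genes were called, so that the share called was near that of all genes. Trim28 was -1.29 for RNA and -2.01 for footprints, and Uhrf1, which copies DNA methylation in dividing cells, was -5.66 for RNA. In C2C12 RNA 1 of 21 was called in RPL3L OE against Control, 3 of 21 in RPL3 OE against Control and 6 of 21 between the overexpressing groups (5 higher in RPL3L OE), where 9.72%, 17.2% and 27.6% of all genes were called. The largest difference was that of Atf7ip, a partner of the methyltransferase SETDB1, at -0.53 in RPL3 OE (adjusted p = 4.22e-09 by edgeR) and 0.42 in RPL3L OE (adjusted p = 4.08e-07), both against Control. Trim28 was not called in any C2C12 comparison, with RNA values of -0.04 and 0.02 against Control.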

How the data were processed

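RNA-seq and Ribo-seq of mouse hearts and C2C12 cells were analysed. Per the study's methods, the authors trimmed Ribo-seq reads with cutadapt, aligned them with STAR to GRCm38.p6 with multiple mappings allowed, collapsed duplicates by molecular identifiers (UMI-tools) and counted them per transcript with featureCounts. The submitters' processing notes name cutadapt, STAR and featureCounts for the RNA-seq too, whose settings are not given in the sources used here. The deposited values are raw counts per transcript, each transcript on 2 identical lines, of which 1 was used. The 16 Disome-seq columns were not used. IDs were matched to GENCODE M21 (23662 of 23877 transcripts). Members and gene lists were chosen with earlier results of these data known.

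Counts were tested in R 4.3.3 with edgeR 4.0.16 (TMM, quasi-likelihood, mean of at least 10 counts, Benjamini-Hochberg over all transcripts, adjusted p under 0.05) over all groups of a tissue, and WT heart against Control C2C12. TE was tested as a group-by-assay interaction term. DESeq2 1.42.0, other filters and scalings, a replicate block, fits of only the groups compared and each replicate left out were alternatives. CPM of single genes used TMM library sizes, and levels per kb and summed CPM used library totals. Fitting was checked on simulated counts. Libraries held 1606700 to 29746110 counts, which limits low genes. Intervals cover counting error only. Named members were, per comparison, the up to 6 called with the largest change in each direction without group overlap or, with none called, the 2 with the smallest p, the 5 highest per tissue, the 3 lowest and highest TE levels, and the listed genes. Others, Rex2 and the chromosome 4 stretch included, were named after their values were seen.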

Additional observations from a re-analysis of the deposited data

Results flagged for a closer look

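Several groups stood out for a sample far from its group, judged by the gap to the nearest other sample divided by the range of the group (Dixon's 95% limit, 0.829 for 4 samples). Of 72 groups of 4 heart libraries examined, 5 passed that limit, and chance alone gives about 1 in 20. All 5 were WT heart RNA-seq groups. Most groups examined were WT, since KO groups entered only for members named in the KO comparisons and for the summed CPM. The genotypes are therefore not compared by this count. Zfp239 was 0.142 CPM in replicate 4, from 2 counts, and 0 in the other 3. Zfp369 was 0.707 CPM in replicate 3 and 0.237 to 0.286 CPM in the others, from 4 counts at most in any library. Zfp395 was 10.3 CPM in replicate 1 and 7.95 to 8.31 CPM in the others. Zfp62 was 18.3 CPM in replicate 2 and 22.2 to 22.9 CPM in the others. The summed CPM of the members was 1722.1 in replicate 3 and 1470.5 to 1472.2 in the others.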

How the results depend on the processing

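Under other settings 212 counts and other summary values stayed near the value given and 23 moved, and no named value changed sign. Of 84 named calls, 56 kept their side of the threshold under every setting that gave them an adjusted p. Settings in which a gene was filtered out, or in which DESeq2 gave it no adjusted p, were not counted. Some of the 56 were therefore not called by DESeq2. Members called by DESeq2 numbered 4 and 7 for RNA in RPL3L OE and RPL3 OE against Control, 1 and 2 for footprints in RPL3L OE against Control and against RPL3 OE, and 1 for TE in RPL3L OE against Control. With a mean of at least 50 counts the footprint calls numbered 4 in RPL3L OE against Control, 2 in RPL3 OE against Control, 3 between these and 20 between heart and C2C12, and the TE calls there numbered 12, since fewer genes were tested. With only the groups compared in the fit, footprint calls in RPL3 OE against Control numbered 3, and the cause was not tested. Per kb of whole transcript, the median member footprint level was 1.67 in WT heart and 2.06 in Control C2C12.

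Leaving out each replicate in turn gave 3 to 9 RNA calls in RPL3L OE against Control, 7 to 11 in RPL3 OE against Control and 14 to 22 between them. It gave 5 to 9, 4 to 6 and 3 to 8 footprint calls, and 1 to 2, 0 to 1 and 0 to 0 TE calls. It left 0 calls in heart and 90 to 106 RNA, 84 to 93 footprint and 36 to 50 TE calls between heart and C2C12.

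Replicate numbers pair the WT heart RNA-seq and Ribo-seq libraries (r from 0.158 to 0.256) but not KO replicates 2 and 3 (r of -0.456 and -0.505, each closest to the other number). In C2C12 the correlations were weak (r from -0.0313 to 0.0607). Each Control library was closest to its own number there, whereas RPL3 OE replicate 1 and RPL3L OE replicates 1 and 3 were not. With the replicate number as a block, the members called were 0 in each heart comparison, 6, 11 and 20 for RNA, 9, 6 and 6 for footprints and 3, 0 and 0 for TE in C2C12, and 49 for TE between heart and C2C12.

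At this depth 97 of the 170 members were tested for footprints in heart, and their median level was below that of all genes.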

Other observations

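The related Zbtb, Zscan and Zkscan genes, 38 of which were in the table, share the C2H2 finger with the Zfp genes but carry BTB or SCAN domains. In C2C12 RNA, 2 of 29 tested were called in RPL3 OE against Control (1 higher, 1 lower), where 17.2% of all genes were, and 4 between the overexpressing groups (3 higher in RPL3L OE), where 27.6% were. Between WT heart and Control C2C12, 19 of 31 were called for RNA (9 higher, 10 lower), where 82.1% of all genes were, and 13 of 28 for TE (6 higher, 7 lower), near the 48.5% of all genes.

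The deadenylation and decapping genes, the partners of zinc finger proteins of mRNA decay, had 16 of 28 listed genes in the table. Between heart and C2C12, 4 of 16 were higher and 11 lower in heart for RNA, and 7 higher and 2 lower for TE, where 82.1% and 48.5% of all genes were called. In C2C12 RNA 1 of 16 fell in each comparison with Control and none rose, where 9.72% (RPL3L OE) and 17.2% (RPL3 OE) of all genes were called.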
